A study of Mus musculus with 12 samples.

Results

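The apolipoprotein genes described here are 10 genes that code for protein components of plasma lipoproteins, namely Apoa1, Apoa2, Apoa4, Apoa5, Apob, Apoc1, Apoc3, Apoe, Apoh and Apom. They were taken by symbol from the 18193 genes that have a probe set with a single gene symbol, and each was represented by its probe set with the highest mean over the 12 arrays. All 10 passed the filter on dim probe sets and were among the 12760 genes tested. They were measured in liver RNA of 12 BALB/c mice in a study of acute autoimmune hepatitis, with 1 array per mouse and 3 mice in each of 4 groups. The groups are IFNko TGFB1 KO (labelled as lacking both transforming growth factor beta 1, Tgfb1, and interferon gamma, Ifng), TGFB KO (labelled as lacking Tgfb1), INFko TGFB+ (labelled as lacking Ifng, with Tgfb1 kept) and wild type. The labels state neither the age of the mice nor how many intact Tgfb1 copies the INFko TGFB+ mice carry.

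Lipoproteins carry triglyceride and cholesterol through the blood, and the liver makes most of their proteins. ApoB is the structural backbone of very low density lipoprotein (VLDL), and apoA-I and apoA-II are the main proteins of high density lipoprotein (HDL). ApoC-III and apoC-I slow the clearance of triglyceride-rich particles, apoA-V promotes it, and apoE is the ligand through which their remnants are taken up. Several of the genes lie in clusters, and hepatocyte nuclear receptors and other liver-enriched factors drive their transcription.

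Between livers lacking Tgfb1 and livers that kept it, the apolipoprotein genes that passed the test differed in both directions. Apoa4 was 6.47-fold higher in TGFB KO livers than in wild type livers and 2.88-fold higher in IFNko TGFB1 KO livers than in INFko TGFB+ livers. Apoa5 and Apoc1 were lower in both comparisons. Apoc3 was lower in IFNko TGFB1 KO livers than in INFko TGFB+ livers and lower than in TGFB KO livers, and did not pass between TGFB KO and wild type livers. Apoe and Apom passed in no comparison, and no gene of the 10 passed between INFko TGFB+ and wild type livers. Apoa1, Apoa2 and Apob also passed in none with quantile normalization, the main setting, which fixes the value of Apoa1. With the signals scaled as deposited, Apoa1 was lower in TGFB KO than in wild type livers. Apoa2 and Apob were then lower in IFNko TGFB1 KO than in INFko TGFB+ livers. None of these added calls held in every fit that left out 1 array.

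In the RefSeq annotation of mouse build GRCm38.p6, Apoa1, Apoc3, Apoa4 and Apoa5 are neighbours in that order on chromosome 9. Apoa4 was higher and Apoa5 lower within this cluster, so the 250 bases before the transcription start are shown for those of its members that the RefSeq promoter table lists, read 5′ to 3′ in the direction of transcription. They lie at chr9:46228380-46228629 (Apoa1), chr9:46240594-46240843 (Apoa4) and chr9:46268358-46268607 (Apoa5, the first of its listed starts), all on the plus strand of the reference genome, which is of another strain than BALB/c. Capitals mark motif matches, and Apoc3 is named only.
Apoa1: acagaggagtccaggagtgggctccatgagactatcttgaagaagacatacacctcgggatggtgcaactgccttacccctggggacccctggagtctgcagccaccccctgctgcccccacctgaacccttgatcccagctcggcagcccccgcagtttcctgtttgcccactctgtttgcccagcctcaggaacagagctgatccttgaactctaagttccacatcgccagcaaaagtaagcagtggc
Apoa4: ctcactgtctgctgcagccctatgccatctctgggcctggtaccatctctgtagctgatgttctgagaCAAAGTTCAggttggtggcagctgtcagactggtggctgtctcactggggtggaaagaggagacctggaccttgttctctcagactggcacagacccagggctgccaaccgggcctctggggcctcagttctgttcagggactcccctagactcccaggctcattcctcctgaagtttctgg
Apoa5: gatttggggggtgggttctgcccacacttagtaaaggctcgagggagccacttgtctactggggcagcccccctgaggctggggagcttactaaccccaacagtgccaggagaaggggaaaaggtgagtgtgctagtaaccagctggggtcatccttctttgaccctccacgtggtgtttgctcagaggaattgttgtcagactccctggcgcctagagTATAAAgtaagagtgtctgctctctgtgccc

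The motifs searched on both strands were CAAAGTNCA (an HNF4-type site, chosen after these sequences were seen) and AGGTCA (a nuclear receptor half-site). Also searched were the TATA box, with the letters TATAAA, and the cyclic AMP response half-site TGACG. Over the same 250 bases of the 32851 promoters in the table, 1.19% held the HNF4-type site, 14% the nuclear receptor half-site, 12.4% the TATA box and 17.8% the cyclic AMP response half-site. The Apoa4 window held 1 match to CAAAGTNCA, which begins 182 bases before the start. The Apoa5 window held TATAAA, beginning 31 bases before the start, and the Apoa1 window held none of the motifs. The table lists 8 of the 10 genes. A match describes letters and not a bound site.

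Each array had been scaled before deposit to a trimmed mean of 150 signal units. IFNko TGFB1 KO replicate 1 stood apart: its rank correlations with the rest ran from 0.754 to 0.809, and those among the remaining arrays from 0.816 to 0.912. The Tgfb1 probe set used averaged 40.2 ± 13.9 in IFNko TGFB1 KO, 68.1 ± 21.2 in TGFB KO, 188 ± 29.5 in INFko TGFB+ and 319 ± 184 in wild type livers (SD, n = 3 each). A second Tgfb1 probe set averaged 54.9, 43.4, 37.1 and 41.8 in the same order, with overlapping ranges, and did not separate the groups. The Ifng probe set averaged 60.9 ± 20.5 in IFNko TGFB1 KO, 127 ± 64.5 in TGFB KO, 5.36 ± 3.72 in INFko TGFB+ and 18.4 ± 10.8 in wild type livers, so it did not check the labels for Ifng. No source used here says whether it lies within the deleted part of the gene, and the groups are called by their labels. Summed over 10 hepatocyte markers, the signal was 58300 to 99500 in IFNko TGFB1 KO, 85200 to 109000 in TGFB KO, 108000 to 130000 in INFko TGFB+ and 119000 to 121000 in wild type livers. All 11 macrophage markers were higher in both groups lacking Tgfb1, with summed signals of 35700 to 50300 in IFNko TGFB1 KO and 50500 to 55900 in TGFB KO, against 7460 to 7530 in INFko TGFB+ and 7400 to 9440 in wild type livers. The 6 T cell markers were likewise all higher in both comparisons. In whole liver, fewer hepatocytes and less RNA per hepatocyte cannot be told apart, and the part of either in the results was not tested.

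Groups were compared with limma on quantile-normalized log2(signal + 16), with Benjamini-Hochberg adjustment over all genes and a threshold of 0.05. Quantile normalization gives the brightest probe set of every array the same value. Apoa1 was the brightest on each of the 12 arrays, so its normalized fold change is 0 by construction and carries no information. Values on the deposited scaling are therefore given beside the normalized ones. Signals are in deposited linear units, differences are log2 fold changes, and ± after a difference is its standard error.

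**Figure D1:**
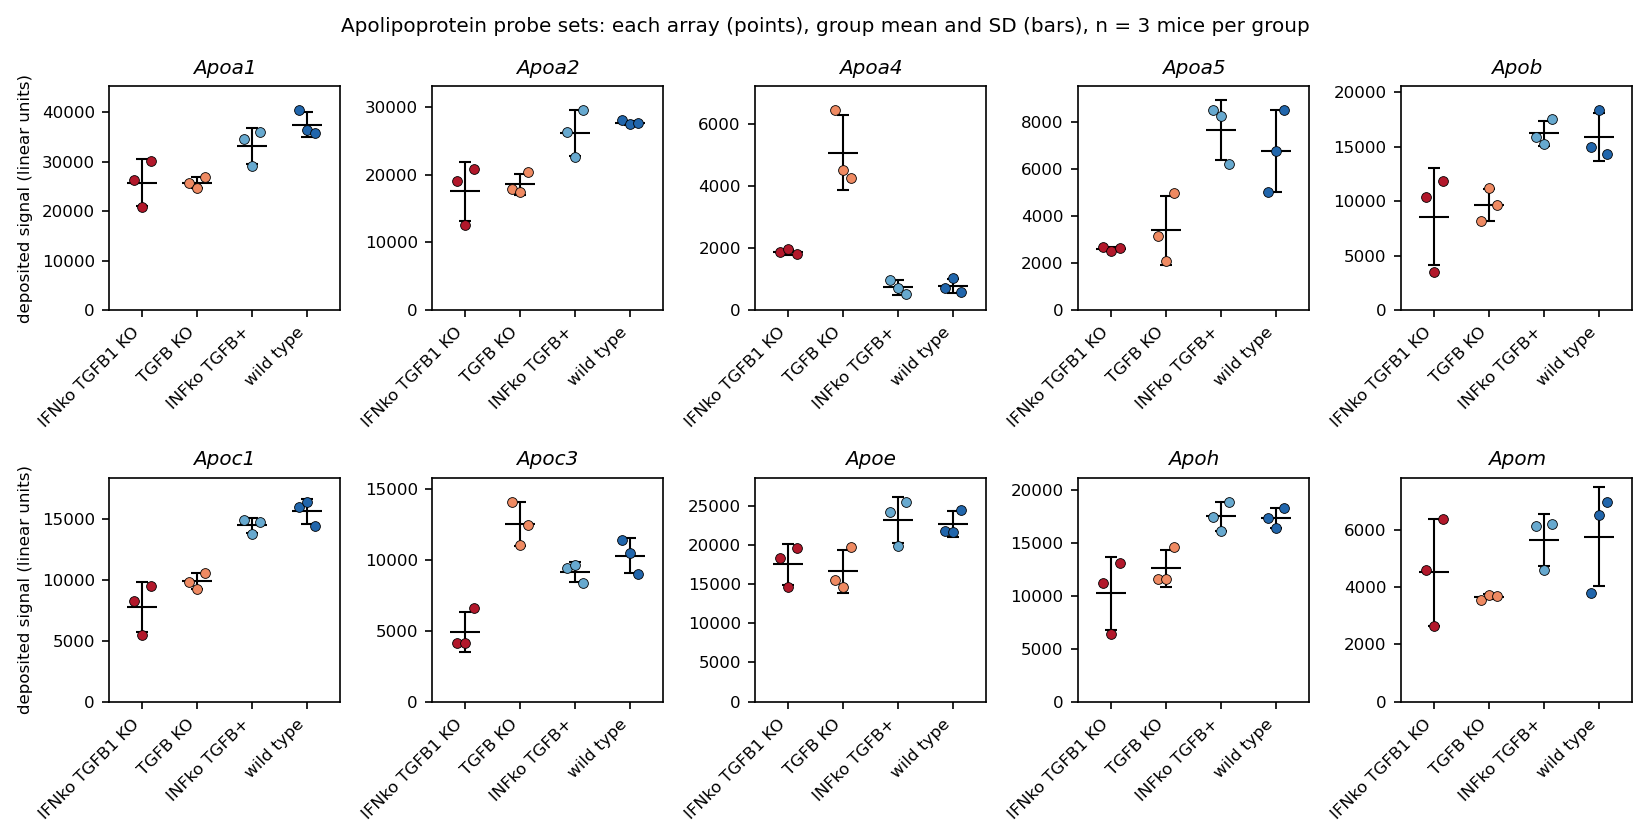
Deposited signal (linear units, axes from 0) of the 10 apolipoprotein probe sets, 1 panel per gene, in IFNko TGFB1 KO, TGFB KO, INFko TGFB+ and wild type livers. Points are single arrays, long bars the group means and error bars the SD of 3 mice; Apoa4 lies higher in both groups lacking Tgfb1, and Apoc3 lies lowest in IFNko TGFB1 KO.

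Apoa1 codes for the main structural protein of HDL, which also activates the cholesterol-esterifying enzyme LCAT. Its signals were 26355, 20792 and 30265 in the IFNko TGFB1 KO livers and 34574, 29111 and 36006 in the INFko TGFB+ livers. They were 25806, 24657 and 26963 in the TGFB KO livers and 40503, 36372 and 35827 in the wild type livers. All TGFB KO arrays lay below all wild type arrays, whereas 1 IFNko TGFB1 KO array lay above the lowest INFko TGFB+ array. On the deposited scaling Apoa1 was 1.45-fold lower in TGFB KO than in wild type livers (-0.54 ± 0.17, limma adjusted p = 0.0409). That call was lost on the same scaling whichever of the 6 arrays was left out (adjusted p up to 0.114), and with arrays centred on their medians (adjusted p = 0.204). Between IFNko TGFB1 KO and INFko TGFB+ livers the difference on the deposited scaling was -0.38 ± 0.17 and did not pass (adjusted p = 0.137). The other Apoa1 probe sets, 3 in number, averaged 21240 to 24060 in IFNko TGFB1 KO, 22080 to 24940 in TGFB KO, 25980 to 28570 in INFko TGFB+ and 31810 to 33180 in wild type livers.

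Apoa2 codes for the second protein of HDL. Its signals were 19061, 12594 and 20898 in IFNko TGFB1 KO and 26260, 22663 and 29540 in INFko TGFB+ livers. They were 17915, 17374 and 20346 in TGFB KO and 28017, 27421 and 27615 in wild type livers. The arrays did not overlap in either comparison. The normalized differences were -0.46 ± 0.17 between IFNko TGFB1 KO and INFko TGFB+ livers (adjusted p = 0.0741) and -0.27 ± 0.17 between TGFB KO and wild type livers (adjusted p = 0.29), and neither passed. On the deposited scaling Apoa2 was 1.52-fold lower in IFNko TGFB1 KO than in INFko TGFB+ livers and passed (adjusted p = 0.0446), while its difference of -0.58 between TGFB KO and wild type livers did not (adjusted p = 0.054). Without IFNko TGFB1 KO replicate 2, the lowest array for Apoa2, the first of these became -0.38 and did not pass (adjusted p = 0.146). It was also lost without each of the INFko TGFB+ arrays in turn (adjusted p up to 0.153), and held in 2 of the 6 fits that leave out 1 array.

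Apoa4 codes for a lipid-binding protein of chylomicrons and HDL that is made mainly in the intestine, and in mice also in the liver. Its signals were 1865, 1960 and 1798 in the IFNko TGFB1 KO livers and 984, 720 and 514 in the INFko TGFB+ livers. They were 6464, 4530 and 4259 in the TGFB KO livers and 716, 1024 and 589 in the wild type livers. Every array lacking Tgfb1 was above every array that kept it, and all TGFB KO arrays were above all IFNko TGFB1 KO arrays. Apoa4 rose by 2.69 ± 0.27 in TGFB KO against wild type livers (limma adjusted p = 3.78e-05). It rose by 1.53 ± 0.27 in IFNko TGFB1 KO against INFko TGFB+ livers (limma adjusted p = 0.002). These calls held under all 17 alternatives that apply to each, with differences of 2.51 to 2.98 for the first and 1.13 to 1.75 for the second.

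Between the groups lacking Tgfb1, Apoa4 was 2.39-fold lower in IFNko TGFB1 KO than in TGFB KO livers (-1.26 ± 0.27, limma adjusted p = 0.0208). This call was lost without TGFB KO replicate 1 (adjusted p = 0.0886), without TGFB KO replicate 2, without IFNko TGFB1 KO replicate 3 and with array quality weights. The difference between the rises of Apoa4 in IFNko TGFB1 KO and in TGFB KO livers, each against its own control, was -1.17 ± 0.38 and did not pass over all genes (adjusted p = 0.239). A second Apoa4 probe set also had TGFB KO highest and IFNko TGFB1 KO next, with 1491 ± 65.2 in IFNko TGFB1 KO, 4224 ± 690 in TGFB KO, 437.5 ± 128 in INFko TGFB+ and 430.7 ± 126 in wild type livers (SD, n = 3 each). Markers of enterocytes, the other main source of Apoa4, summed to 503 to 1670 in IFNko TGFB1 KO, 715 to 1180 in TGFB KO, 3750 to 4410 in INFko TGFB+ and 3470 to 4010 in wild type livers. Most of that sum was Fabp2, a fatty acid binding protein, and Vil1, Cdx1, Cdx2, Alpi and Lct were under the filter for dim probe sets. The sum is thus mainly a reading of Fabp2, and the part of enterocytes in the Apoa4 values was not tested.

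Apoa5 codes for a protein that helps lipoprotein lipase clear triglyceride. Its signals were 2679, 2521 and 2639 in the IFNko TGFB1 KO livers and 8531, 8288 and 6227 in the INFko TGFB+ livers. They were 3158, 2074 and 4987 in the TGFB KO livers and 5047, 6794 and 8516 in the wild type livers. The highest TGFB KO array was just below the lowest wild type array, and the IFNko TGFB1 KO arrays were far below the INFko TGFB+ arrays and close to each other. Apoa5 fell by 1.37 ± 0.28 on the log2 scale in IFNko TGFB1 KO against INFko TGFB+ livers, 2.58-fold (limma adjusted p = 0.00434), and this call held under all 17 alternatives. It fell by 1.05 ± 0.28 in TGFB KO against wild type livers, 2.07-fold (limma adjusted p = 0.0181). This second call was lost without wild type replicate 3 or without TGFB KO replicate 2 (adjusted p up to 0.0666). The difference between the 2 effects was -0.32 ± 0.39 (95% confidence interval -1.18 to 0.55, adjusted p = 0.816).

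Apoc3 codes for an inhibitor of lipoprotein lipase and of remnant uptake, and it lies between Apoa1 and Apoa4. Its signals were 4143, 4119 and 6574 in the IFNko TGFB1 KO livers and 9408, 9645 and 8358 in the INFko TGFB+ livers. They were 14117, 11056 and 12435 in the TGFB KO livers and 11407, 10511 and 8996 in the wild type livers. The IFNko TGFB1 KO arrays were below all other arrays. The TGFB KO and wild type arrays overlapped in deposited signal but not in normalized values. Apoc3 fell by 0.81 ± 0.18 in IFNko TGFB1 KO against INFko TGFB+ livers, 1.75-fold (limma adjusted p = 0.00764). It was 2.41-fold lower in IFNko TGFB1 KO than in TGFB KO livers (-1.27 ± 0.18, limma adjusted p = 0.00222). Each of these calls held under all 17 alternatives, with adjusted p up to 0.0392 for the first and 0.0371 for the second.

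In TGFB KO against wild type livers the Apoc3 difference was 0.32 ± 0.18 (95% confidence interval -0.08 to 0.72) and did not pass (adjusted p = 0.24). The effect of Tgfb1 loss on Apoc3 in mice labelled as lacking Ifng, minus that in mice with Ifng, was -1.13 ± 0.26 (95% confidence interval -1.69 to -0.56). Its unadjusted p was 0.00105, and after adjustment over all genes it missed the threshold (limma adjusted p = 0.0812, and 0.101 on the deposited scaling). It passed in 3 of 22 alternatives, which were a pseudocount of 64, a filter at the 60th percentile and leaving out IFNko TGFB1 KO replicate 3.

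Apoc1 codes for a small protein that slows particle uptake and activates LCAT. Its signals were 8266, 5452 and 9465 in the IFNko TGFB1 KO livers and 14845, 13710 and 14748 in the INFko TGFB+ livers. They were 9836, 9226 and 10518 in the TGFB KO livers and 15959, 16398 and 14424 in the wild type livers. All arrays lacking Tgfb1 were below all arrays that kept it. Apoc1 fell by 0.84 ± 0.18 in IFNko TGFB1 KO against INFko TGFB+ livers, 1.79-fold (limma adjusted p = 0.00546), and this call held under all 17 alternatives. It fell by 0.59 ± 0.18 in TGFB KO against wild type livers, 1.51-fold (limma adjusted p = 0.033). That call was lost in 5 of the 6 fits that leave out 1 array (adjusted p up to 0.092), without a filter (adjusted p = 0.0622) and with median centring (adjusted p = 0.116).

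Apob codes for the backbone of VLDL and low density lipoprotein. Its signals were 10402, 3484 and 11903 in IFNko TGFB1 KO and 15895, 15287 and 17541 in INFko TGFB+ livers. They were 8204, 11194 and 9618 in TGFB KO and 14938, 18379 and 14372 in wild type livers. The arrays lacking Tgfb1 were all below those that kept it, and IFNko TGFB1 KO replicate 2 was the lowest by a wide margin. The normalized differences did not pass, at -0.98 ± 0.35 between IFNko TGFB1 KO and INFko TGFB+ livers (adjusted p = 0.059) and -0.62 ± 0.35 between TGFB KO and wild type livers (adjusted p = 0.226). On the deposited scaling the first was -1.10 and passed (adjusted p = 0.0453), and without IFNko TGFB1 KO replicate 2 it was -0.54 and did not (adjusted p = 0.0731). It was also lost without each of the INFko TGFB+ arrays in turn (adjusted p up to 0.119), and held in 2 of the 6 fits that leave out 1 array. A second and dimmer Apob probe set averaged 587.1 ± 449 in IFNko TGFB1 KO, 1480 ± 662 in TGFB KO, 1437 ± 209 in INFko TGFB+ and 2634 ± 1640 in wild type livers (SD, n = 3 each).

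Apoe codes for the remnant ligand of the low density lipoprotein receptor family and is made by hepatocytes and by macrophages. Its signals were 18365, 14570 and 19614 in IFNko TGFB1 KO and 24184, 19884 and 25520 in INFko TGFB+ livers. They were 15501, 14656 and 19764 in TGFB KO and 21810, 21587 and 24499 in wild type livers. The deposited signals did not overlap in either comparison, whereas the normalized values of IFNko TGFB1 KO and INFko TGFB+ livers overlapped. The normalized differences were small, at -0.15 ± 0.14 (adjusted p = 0.467) for IFNko TGFB1 KO against INFko TGFB+ and -0.24 ± 0.14 (adjusted p = 0.236) for TGFB KO against wild type. On the deposited scaling they were -0.41 ± 0.19 (adjusted p = 0.128) and -0.45 ± 0.19 (adjusted p = 0.098). Macrophage marker signal was higher in both groups lacking Tgfb1 and hepatocyte marker signal lower, and their part in the Apoe values was not tested.

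Apoh codes for beta-2-glycoprotein I, a plasma protein that binds phospholipid. Its signals were 11218, 6404 and 13113 in IFNko TGFB1 KO and 17468, 16176 and 18936 in INFko TGFB+ livers. They were 11559, 11616 and 14618 in TGFB KO and 17405, 16448 and 18284 in wild type livers. The groups lacking Tgfb1 lay wholly below those that kept it. Apoh fell by 0.71 ± 0.22 in IFNko TGFB1 KO against INFko TGFB+ livers (limma adjusted p = 0.0349), and the difference between TGFB KO and wild type livers was -0.36 ± 0.22 (adjusted p = 0.269). Without IFNko TGFB1 KO replicate 2 the first became -0.41 and did not pass (adjusted p = 0.0715), and it also missed the threshold without each of the INFko TGFB+ arrays in turn (adjusted p up to 0.095).

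Apom codes for the HDL protein that carries sphingosine-1-phosphate. Its signals were 4578, 2625 and 6360 in IFNko TGFB1 KO and 6139, 4610 and 6191 in INFko TGFB+ livers. They were 3558, 3719 and 3688 in TGFB KO and 3783, 6516 and 6984 in wild type livers. The first pair of groups overlapped. The TGFB KO arrays were just below the lowest wild type array in deposited signal, and overlapped with wild type in normalized values. Neither difference passed, at -0.24 ± 0.29 for IFNko TGFB1 KO against INFko TGFB+ (95% confidence interval -0.88 to 0.41) and -0.54 ± 0.29 for TGFB KO against wild type (95% confidence interval -1.18 to 0.11). The second Apom probe set averaged 2654 ± 690 in IFNko TGFB1 KO, 2452 ± 557 in TGFB KO, 3387 ± 473 in INFko TGFB+ and 4145 ± 651 in wild type livers (SD, n = 3 each).

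**Figure D2:**
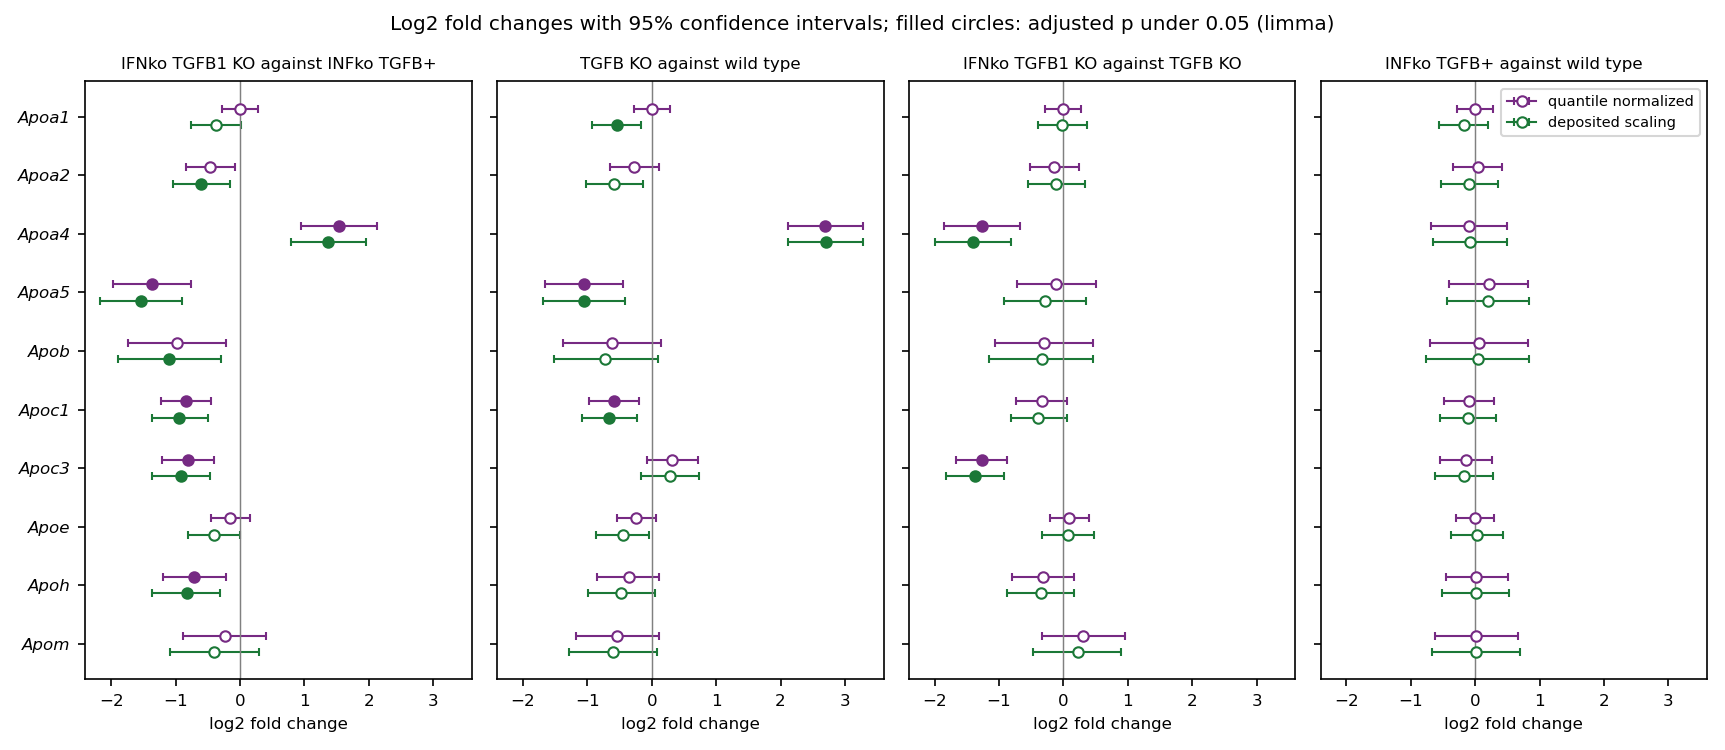
Log2 fold changes of the 10 apolipoprotein genes in 4 comparisons, with 95% confidence intervals, on the quantile-normalized scale (purple) and the deposited scaling (green). Filled circles had an adjusted p under 0.05; Apoa4 is the only gene filled on the right of 0, and no circle is filled for INFko TGFB+ against wild type.

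Of the 10 genes, 1 was higher and 4 lower in IFNko TGFB1 KO against INFko TGFB+ livers, where 12.7% of all tested genes were higher and 13.1% lower. On the deposited scaling 1 was higher and 6 lower, beside 14.3% and 12.1% of all genes. In TGFB KO against wild type livers 1 was higher and 2 lower, where 12.2% of all genes were higher and 11.9% lower. On the deposited scaling 1 was higher and 3 lower, against 12.8% and 12.1% of all genes. With each array centred on its median, 1 gene of the 10 was higher and 6 were lower in the first comparison, and 1 was higher and 1 lower in the second. That centring moved the split over all genes to 988 higher and 1864 lower in the first and 1448 higher and 893 lower in the second. The quantile-normalized splits were 1618 higher and 1673 lower, and 1553 higher and 1524 lower. The median difference of the 10 genes was -0.58 in the first comparison and -0.32 in the second, and the median over all genes was -0.01 and -0.06. Apoa1 enters these medians at its fixed value of 0, and without it they were -0.71 and -0.36. Its fixed value can also be neither called nor free of overlap. In every comparison the quantile-normalized counts of calls and of arrays without overlap can therefore come only from the other 9 genes. The medians of the 10 genes on the deposited scaling were -0.72 and -0.56, beside 0.09 and -0.04 over all genes. For the 100 brightest genes the medians on that scaling were also below 0, at -0.309 and -0.137. With quantile normalization they were -0.216 and -0.0564. The normalized values of the compared arrays did not overlap for 7 of the 10 genes in the first comparison and 8 in the second, where they did not overlap for 45.5% and 40.3% of all tested genes.

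In IFNko TGFB1 KO against TGFB KO livers, Apoa4 and Apoc3 were the 2 genes called, both lower, where 2.54% of all genes were higher and 2.82% lower. The same 2 genes were called lower on the deposited scaling, where 2.84% of all genes were higher and 2.82% lower. The normalized arrays of these groups did not overlap for 3 of the 10 genes, beside 23.1% of all genes. The 8 genes not called had normalized differences between -0.34 (Apoc1, adjusted p = 0.309) and 0.31 (Apom, adjusted p = 0.598). The difference between the 2 Tgfb1 effects was called for none of the 10 genes, and 2 of them had an unadjusted p under 0.05, as did 11.8% of all genes. Over all genes 0.87% were called there, and 0.854% on the deposited scaling. These comparisons share the IFNko TGFB1 KO and TGFB KO arrays. Of the 6 T cell markers measured, 3 were called higher in IFNko TGFB1 KO than in TGFB KO livers, and their summed signals were 1660 to 2690 in IFNko TGFB1 KO, 664 to 813 in TGFB KO, 58.6 to 128 in INFko TGFB+ and 115 to 148 in wild type livers. Of the 6 stellate cell markers, 3 were called higher as well, with sums of 10200 to 13200 in IFNko TGFB1 KO and 5170 to 6420 in TGFB KO livers, against 6930 to 7700 in INFko TGFB+ and 7740 to 10200 in wild type livers. The part of these cells in the Apoa4 and Apoc3 differences was not tested.

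In INFko TGFB+ against wild type livers the call rate was 0% on both scalings, and 650 of the 12760 genes had an unadjusted p under 0.05, none of them an apolipoprotein gene listed here. The arrays of these groups did not overlap for 0 of the 10 genes, beside 13.1% of all genes. The normalized differences of the 10 genes lay between -0.14 (Apoc3, 95% confidence interval -0.54 to 0.26) and 0.21 (Apoa5, 95% confidence interval -0.40 to 0.82). For Apoa4 it was -0.09 (95% confidence interval -0.68 to 0.49). A p that misses the threshold does not show that the levels are alike, and for Apob, with the widest interval, it ran from -0.70 to 0.82.

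Without IFNko TGFB1 KO replicate 1, the array that stood apart, all 5 genes called against INFko TGFB+ and both called against TGFB KO stayed called, and Apob was called too (-1.24, limma adjusted p = 0.0284).

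The levels within IFNko TGFB1 KO varied more than in the other groups for several genes. Replicate 2, read as female from Xist and Eif2s3y, was the lowest array of its group for 9 of the 10 genes, and each of the other groups also held 1 female. Those females were lowest for 3 genes in TGFB KO, 0 in INFko TGFB+ and 3 in wild type livers. In those groups a male array was lowest most often, for 6 genes in TGFB KO, 7 in INFko TGFB+ and 5 in wild type livers. The coefficient of variation in IFNko TGFB1 KO was 52.2% for Apob, 41.3% for Apom and 33.8% for Apoh, against 3.15% for Apoa5 and 4.34% for Apoa4.

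The genes next to the members were read for the same comparisons. On chromosome 9 the flanking genes Pafah1b2 and Sik3 on the Apoa1 side, and Zpr1 and Bud13 on the Apoa5 side, were called in none of the 5 comparisons. On the normalized scale the calls at this locus were those of Apoc3, Apoa4 and Apoa5. Apoa1 could not be called there, because the normalization fixes its value. On the deposited scaling it was called lower in TGFB KO than in wild type livers (limma adjusted p = 0.0409). That call was lost whichever array was left out. On chromosome 7, Apoc2, Apoc4, Apoc1 and Apoe lie in that order between Clptm1 and Tomm40. Apoc4 fell by 1.27 ± 0.29 in IFNko TGFB1 KO against INFko TGFB+ livers (limma adjusted p = 0.00776) and by 1.50 ± 0.29 in TGFB KO against wild type livers (limma adjusted p = 0.00325). Its signal averaged 4700 ± 1950 in IFNko TGFB1 KO, 5110 ± 719 in TGFB KO, 11500 ± 1440 in INFko TGFB+ and 14500 ± 3160 in wild type livers (SD, n = 3 each). Apoc2, for the activator of lipoprotein lipase, did not pass (-0.05 and 0.20), and neither did Clptm1 or Tomm40.

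On chromosome 1, next to Apoa2, Fcer1g, which codes for a signalling chain of Fc receptors in myeloid cells, was 2.65 ± 0.25 in IFNko TGFB1 KO against INFko TGFB+ livers and 3.23 ± 0.25 in TGFB KO against wild type livers (limma adjusted p = 5.71e-05 and 7.89e-06). Nr1i3, on the other side of Apoa2, was lower in IFNko TGFB1 KO against INFko TGFB+ livers (-1.38 ± 0.36, limma adjusted p = 0.0159). On chromosome 12, next to Apob, Ldah was lower in the same comparison (-0.98 ± 0.33, limma adjusted p = 0.0459). Atad2b, also near Apob, was lower in TGFB KO against wild type livers (-0.52 ± 0.17, limma adjusted p = 0.044), and that call was lost on the deposited scaling (adjusted p = 0.073). The tested neighbours of Apoh and Apom were called in none of the 5 comparisons.

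**Figure D3:**
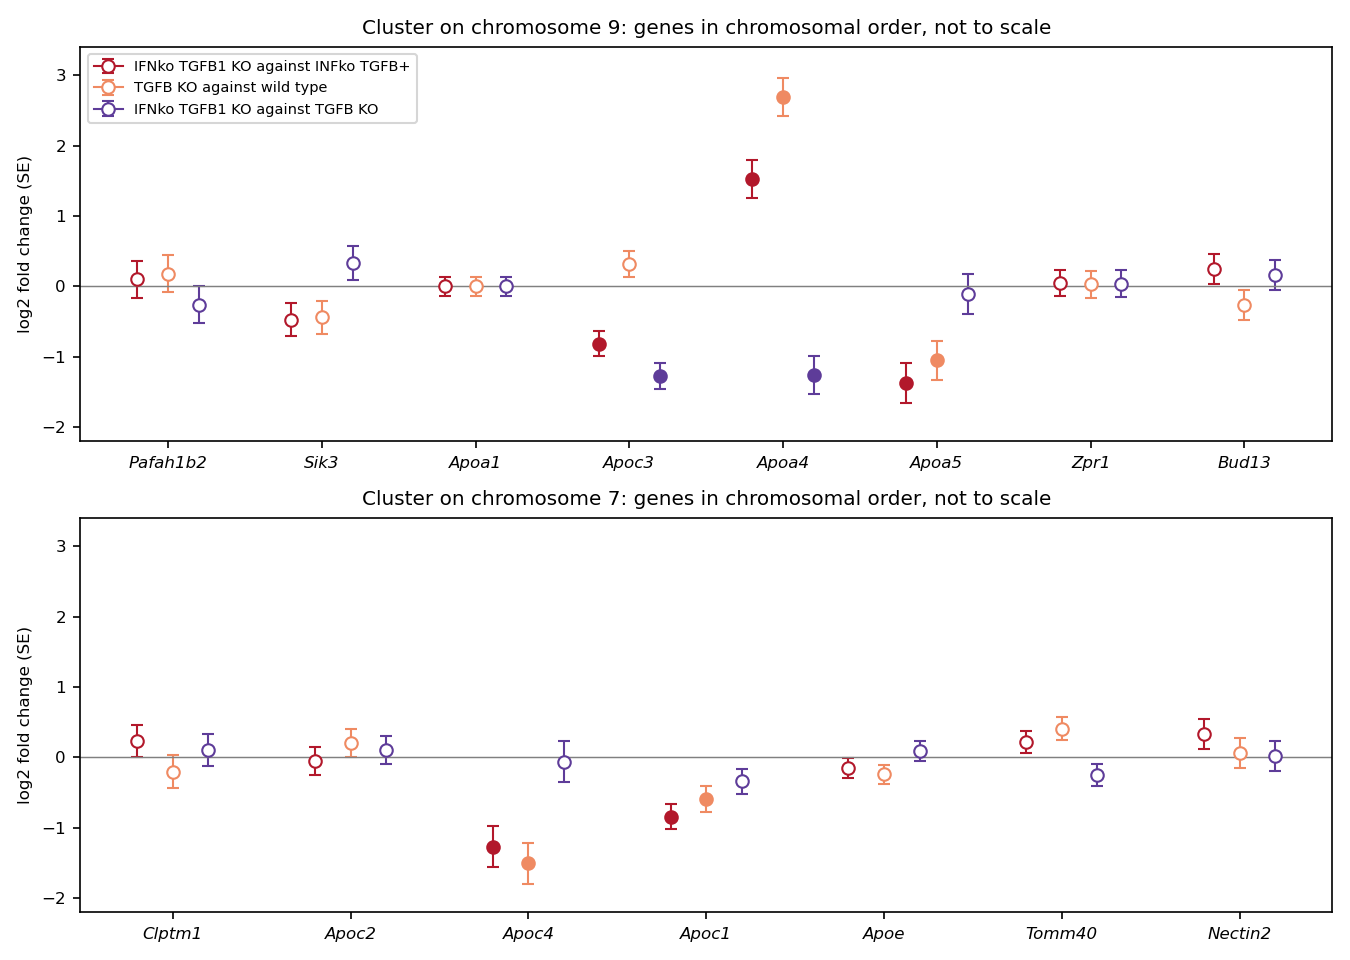
Log2 fold changes (quantile-normalized, error bars are standard errors) of the genes in the apolipoprotein clusters of chromosomes 9 (top) and 7 (bottom), in chromosomal order and not to scale. Filled circles had an adjusted p under 0.05. Against their own controls, both groups lacking Tgfb1 have Apoa4 higher and Apoa5, Apoc4 and Apoc1 lower, and IFNko TGFB1 KO has Apoc3 lower. In IFNko TGFB1 KO against TGFB KO only Apoa4 and Apoc3 are filled, both lower. Apoa1 is fixed at 0 by the normalization.

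Genes related by pathway or by name were read from lists of other apolipoproteins, particle assembly, HDL metabolism, lipolysis, receptors and transcription factors, with up to 4 genes of smallest p named per list. The counts of each list below stand beside the shares over all tested genes. In IFNko TGFB1 KO against INFko TGFB+ livers these were 12.7% higher and 13.1% lower. In TGFB KO against wild type livers they were 12.2% higher and 11.9% lower. Of 10 other apolipoproteins tested, 1 was higher and 7 lower in IFNko TGFB1 KO against INFko TGFB+ livers, and 0 were higher and 3 lower in TGFB KO against wild type livers. In the first comparison Apol7a (-2.61 ± 0.51), Apon (-2.27 ± 0.50) and Apoc4 were lower and Clu, the chaperone clusterin, was higher (0.59 ± 0.14). In the second Apoc4, Apof (-0.71 ± 0.22) and Apool (-0.57 ± 0.19) were lower. The calls of Apof and Apool were lost on the deposited scaling (limma adjusted p = 0.0523 and 0.0535). Apon was also lower in IFNko TGFB1 KO than in TGFB KO livers (-2.18 ± 0.50, limma adjusted p = 0.0286), as Apoa4 and Apoc3 were.

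Of 27 genes of apoB particle assembly and secretion, 1 was higher and 14 lower in IFNko TGFB1 KO against INFko TGFB+ livers, and 1 was higher and 10 lower in TGFB KO against wild type livers. The one higher was Apobec1, the enzyme that edits Apob mRNA to the short apoB-48 form, at 1.56 ± 0.19 in the first comparison and 1.40 ± 0.19 in the second. Ces1g, a carboxylesterase, was lower by the widest margin (-3.73 ± 0.68 and -3.36 ± 0.68). Dgat2, for the last step of triglyceride synthesis, was -1.47 ± 0.27 in the first, and the lipid hydrolase Ces1d was -2.38 ± 0.47. Creb3l3, a membrane-bound factor that activates Apoa4 and Apoa5 transcription in mice, was -0.92 ± 0.20 in TGFB KO against wild type livers, and the lipase-like Aadac was -1.27 ± 0.30. In that comparison Apoa4 was higher and Apoa5 lower, and the part of Creb3l3 in either was not tested. Mttp, the transfer protein that loads lipid onto apoB, did not pass in either comparison (-0.49 ± 0.24 and -0.30 ± 0.24).

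Of 13 genes of HDL formation and remodelling, 3 were higher and 5 lower in IFNko TGFB1 KO against INFko TGFB+ livers, and 3 were higher and 3 lower in TGFB KO against wild type livers. Pltp, which transfers phospholipid between particles, was 1.73 ± 0.21 in the first and 1.40 ± 0.21 in the second. Abcg1, which exports cholesterol to HDL and is abundant in macrophages, was 1.73 ± 0.22 and 2.09 ± 0.22. Pcolce2, an enhancer of the protease that matures apoA-I, was 1.30 ± 0.24 in the first, and Abcg8, one subunit of the biliary sterol exporter, was -1.83 ± 0.34. In TGFB KO against wild type livers its partner Abcg5 was -1.93 ± 0.41, and Bmp1, the protease that matures apoA-I, was -1.56 ± 0.26.

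Of 13 lipolysis genes, 2 were higher and 5 lower in IFNko TGFB1 KO against INFko TGFB+ livers, and 3 were higher and 5 lower in TGFB KO against wild type livers. Angptl4, an inhibitor of lipoprotein lipase, was 1.43 ± 0.23 in the first and 1.06 ± 0.23 in the second, and the fatty acid transporter Cd36 was 1.36 ± 0.22 and 0.92 ± 0.22. Lpl, the lipase that Apoa5 and Apoc3 act on, was -0.91 ± 0.16 in TGFB KO against wild type livers. Its maturation factors Lmf1 (-1.22 ± 0.25) and Sel1l (-0.93 ± 0.19) were lower in IFNko TGFB1 KO against INFko TGFB+ livers, and Sel1l was also lower in TGFB KO against wild type livers (-0.87 ± 0.19). Lmf1 was lower in IFNko TGFB1 KO than in TGFB KO livers as well (-1.18 ± 0.25, limma adjusted p = 0.02).

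Of 16 receptor and uptake genes, 5 were higher and 1 lower in IFNko TGFB1 KO against INFko TGFB+ livers, and 4 were higher and 0 lower in TGFB KO against wild type livers. In the first comparison 3 were higher and 2 lower on the deposited scaling, and the counts of the second were the same. Those with the smallest p were Msr1, a macrophage scavenger receptor (2.31 ± 0.16 and 2.38 ± 0.16), Sorl1 (1.84 ± 0.31 and 1.50 ± 0.31) and Apobr, a macrophage receptor for apoB-48 particles (1.30 ± 0.27 and 1.44 ± 0.27). Stab1 was higher in TGFB KO against wild type livers (0.75 ± 0.21), and Lrp6 was lower in IFNko TGFB1 KO against INFko TGFB+ livers (-0.86 ± 0.24). Macrophage markers moved the same way, and their part in these values was not tested. The low density lipoprotein receptor gene was not analysed here.

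Of 28 transcription factors that act on apolipoprotein or lipid genes, 1 was higher and 14 lower in IFNko TGFB1 KO against INFko TGFB+ livers, and 1 was higher and 12 lower in TGFB KO against wild type livers. The one higher was Cebpb, a factor of the acute phase, at 1.01 ± 0.20 in the first and 1.60 ± 0.20 in the second. It was lower in IFNko TGFB1 KO than in TGFB KO livers (-0.86 ± 0.20, limma adjusted p = 0.0273). Hnf4a, the nuclear receptor that binds the cluster of Apoa1, Apoc3, Apoa4 and Apoa5, was -0.75 ± 0.25 in the first (limma adjusted p = 0.0476) and did not pass in the second (-0.37 ± 0.25). Ppara, which activates Apoa5 in human cells, was -2.12 ± 0.32 in the first and -1.69 ± 0.32 in the second. The bile acid receptor Nr1h4 was -1.75 ± 0.20 and -0.94 ± 0.20, and Foxa2 was -2.54 ± 0.33 and -1.63 ± 0.33. Mlxipl, the carbohydrate response factor, was -2.04 ± 0.30 and -1.88 ± 0.30. In TGFB KO against wild type livers Srebf1, the driver of fatty acid synthesis, was -2.53 ± 0.29 and the corepressor Nr0b2 was -1.38 ± 0.26.

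Of 29 other secreted hepatocyte proteins, 0 were higher and 12 lower in IFNko TGFB1 KO against INFko TGFB+ livers, and 0 were higher and 4 lower in TGFB KO against wild type livers. Their medians were -0.47 in the first comparison and -0.14 in the second, beside -0.58 and -0.32 for the 10 apolipoprotein genes. The deposited scaling gave -0.54 and -0.35, beside -0.72 and -0.56 for the apolipoprotein genes. Those with the smallest p were Hrg (-1.93 ± 0.35), F2 (-0.99 ± 0.19), Fetub (-0.79 ± 0.16) and Itih1 (-1.64 ± 0.34) in the first and Itih1 (-1.44 ± 0.34), Serpina6 (-3.50 ± 0.95), Ttpa (-1.11 ± 0.33) and Serpinc1 (-0.68 ± 0.21) in the second. Of the 10 hepatocyte markers, which share F2 and Serpinc1 with this list, 6 were lower in the first comparison and 1 in the second. The apolipoprotein genes were not tested as a set against either list.

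**Figure D4:**
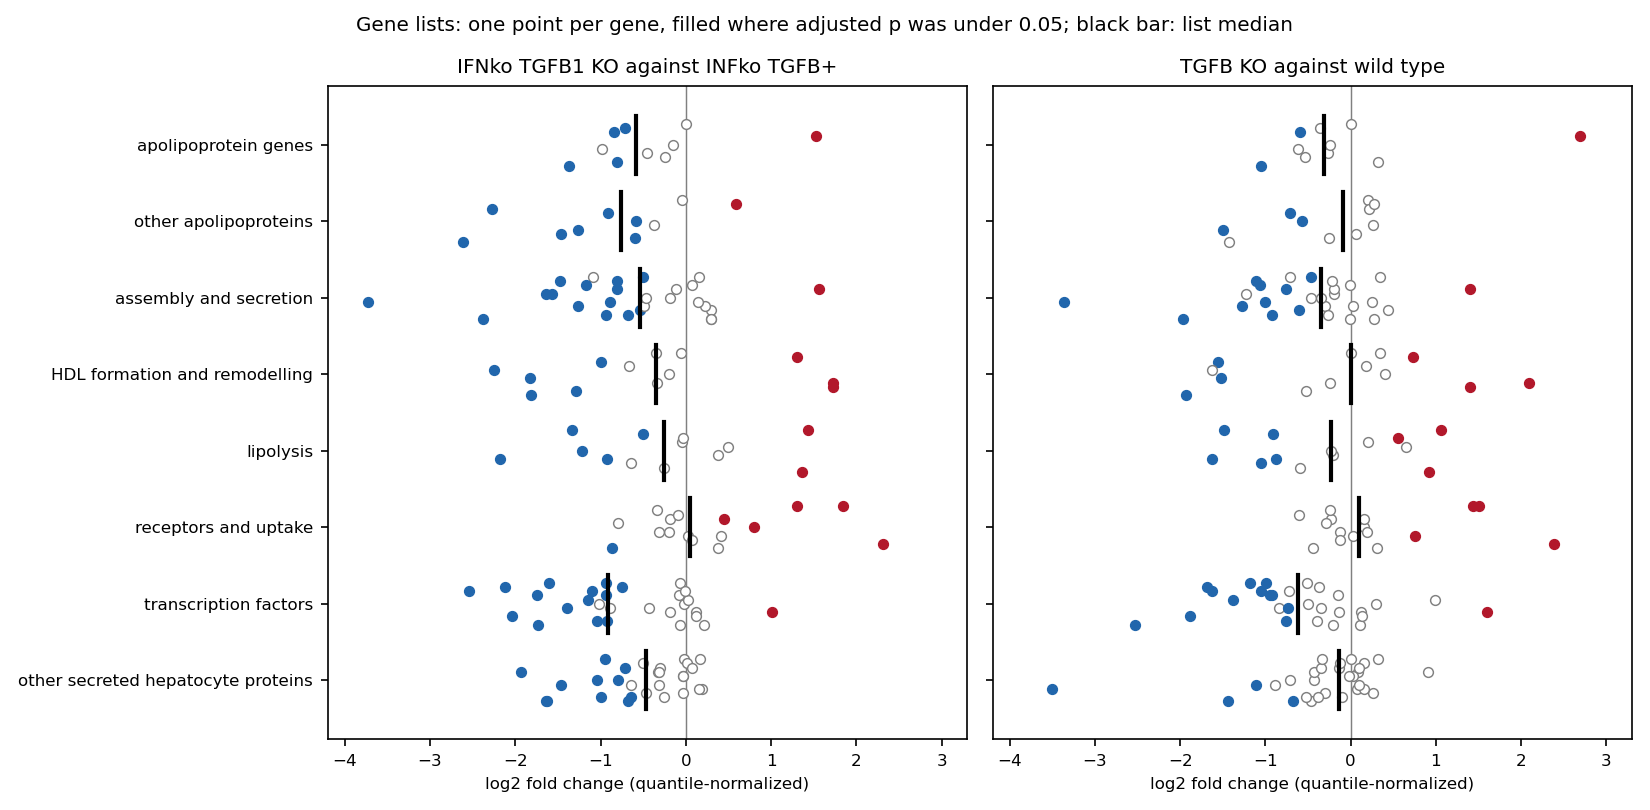
Log2 fold changes (quantile-normalized) of the 10 apolipoprotein genes and of 7 other gene lists, in IFNko TGFB1 KO against INFko TGFB+ (left) and TGFB KO against wild type (right). Each point is a gene, filled red or blue where it was called higher or lower, and black bars are list medians, -0.58 and -0.32 for the apolipoprotein genes.

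The tested genes whose levels followed each member most closely over the 12 arrays were ranked by Pearson's r. The arrays share their groups, so r reflects group differences as well as single mice and has no p here. Apoa4 was most like Trim30a (r = 0.979), Dram1 and Pld4 (both 0.977). Apoc1 was most like F9 (r = 0.992), Tmprss6 (0.988) and Cyp1a2 (0.987), and Apoa2 most like Nr1i3 (0.989), Ugt2b34 and Timd2 (both 0.987). Nr1i3, a xenobiotic receptor, lies close to Apoa2 on chromosome 1, with Tomm40l between them. Apoh was most like Dpyd (0.983), Slco1b2 and Pon1 (both 0.982), and Apob most like Slco1b2 (0.976), Akr1c20 (0.974) and Mbl1 (0.971). For Apoe the 3 were Mrps31 (0.974), Mrps2 (0.972) and Phykpl (0.963). Values were lower for Apoa5 with Phactr4 (0.955), Smim26 (0.948) and Bmf (0.946), for Apoc3 with Helz2 (0.952), C1ra (0.94) and Selenbp1 (0.936), and for Apom with Rtraf (0.944), Spin2c (0.886) and Zfp324 (0.884). Apoa1, on the deposited scaling, was most like Ahsg (0.975), Rassf8 (0.952) and Tmem185a (0.946).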

How the data were processed

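Liver RNA of 12 mice was measured on 12 arrays of 45101 probe sets, of which 64 are control probe sets. Per the labels, Trizol was used for extraction and one-cycle labelling with biotin followed. The values are linear intensities, deposited by the authors as 1 signal per probe set and array. After removal of 2 percent at each end, every array had a mean of 150, so the authors' values were already scaled. How signals were summarised per probe set, and to which target they were scaled, is not given in the sources used here. No column of another sample was present.

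Symbols came from the platform annotation and, for 34754 of the 34958 probe sets with a single symbol, were updated through the gene ID in the RefSeq table of build GRCm38.p6. A further 932 probe sets had several symbols and 9211 none, and these named no gene. Signals were quantile-normalized as log2(signal + 16). A gene was represented by its brightest single-symbol probe set, and probe sets under the 40th percentile of mean level (5.25 on the log2 scale) were left out, which left 12760 genes. One limma fit (version 3.58.1, R 4.3.3) held a mean per group over all 12 arrays, with 8 residual and 3.44 prior degrees of freedom. All tests were two-sided, with Benjamini-Hochberg adjustment over all genes in each of 5 comparisons. The fit was tested on simulated data.

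Quantile normalization fixes the brightest probe set, so the same fit on the deposited scaling stands beside it for all 10 genes. The other alternatives were median centring, pseudocounts of 1 and 64, other filters, means over probe sets, array quality weights, only the groups compared, the replicate number as a block, sex read from Xist and Eif2s3y as a covariate, and each array left out in turn. The block, sex and left-out arrays on the deposited scaling were added after the data were seen. The members and the gene lists were chosen with earlier results of these data known. All 10 members are named in every comparison, with Apoc2 and Apoc4. Of the other lists, up to 4 genes with the smallest p among those called in a comparison are named, and for each member the 3 genes with the highest correlation, without predicted or clone names. Marker and flanking genes, Mttp and Hnf4a were added by role.

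Replicates are separate mice by their labels, and nothing says whether they shared a litter or a day. The p-values set group differences against the spread between mice within groups. They cannot account for a litter or day that differed between groups. With 3 arrays per group, the number of arrays limits the precision. The first INFko TGFB+ array carries no number in its label and was called replicate 1. The numbers were not treated as pairs, because no label says that equal numbers mark a shared litter or day. Deviations of same-numbered arrays from their group means correlated at 0.0652 to 0.343 between TGFB KO and wild type and at -0.0554 to -7.42e-05 between IFNko TGFB1 KO and INFko TGFB+. With 3 arrays per group these values cannot settle whether the mice were paired. Promoter sequences are those of the RefSeq promoter table, which lists 8 of the 10 genes.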

Additional observations from a re-analysis of the deposited data

Results flagged for a closer look

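Apoc3, which codes for an inhibitor of lipoprotein lipase, had differences of opposite sign in the 2 comparisons of mice lacking Tgfb1 with their own controls, of which 1 passed the test. It was lower in IFNko TGFB1 KO than in INFko TGFB+ livers (-0.81, limma adjusted p = 0.00764), and its difference of 0.32 between TGFB KO and wild type livers did not pass (limma adjusted p = 0.24). All 3 IFNko TGFB1 KO arrays lay below the INFko TGFB+ mean, and all 3 TGFB KO arrays lay above the wild type mean. The difference of the 2 effects, tested as an interaction in the limma fit, was -1.13 on the log2 scale and missed the threshold over all genes (adjusted p = 0.0812). No other apolipoprotein gene of the 10 met the same condition.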

How the results depend on the processing

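No result of the 10 apolipoprotein genes changed sign while called, under any of the alternatives run. The number of these genes called stayed at 3 in TGFB KO against wild type under the replicate block, at 5 in IFNko TGFB1 KO against INFko TGFB+, at 2 in IFNko TGFB1 KO against TGFB KO, and at 0 for the difference of the Tgfb1 effects and for INFko TGFB+ against wild type. Over all genes the block gave 3051, 3277, 571, 84 and 0 calls in that order, against 3077, 3291, 684, 111 and 0 without it. No array correlated best with its own number, but with 3 arrays per group this cannot show that same-numbered mice were unpaired. The block changed no call of the 10 genes. For the difference of the effects, all-gene calls were 57 with a pseudocount of 1 and 212 with 64, and 1 apolipoprotein gene, Apoc3, was called with 64 and with the 60th-percentile filter. In IFNko TGFB1 KO against TGFB KO, 1 of the 10 was called with array quality weights, and 213 of all genes were called with the arrays of those groups only. Median centring moved the median of all genes by more than 0.1, to -0.155 in IFNko TGFB1 KO against INFko TGFB+, against -0.00964 with quantile normalization. Sex as a covariate added the call of Apob in IFNko TGFB1 KO against INFko TGFB+ (limma adjusted p = 0.0459) and changed no other call of the 10.

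With 1 array left out, the apolipoprotein genes called numbered 1 to 2 in TGFB KO against wild type, with 1 without TGFB KO replicate 2. They numbered 4 to 7 in IFNko TGFB1 KO against INFko TGFB+. In IFNko TGFB1 KO against TGFB KO they numbered 1 to 2, with 1 without TGFB KO replicate 1, TGFB KO replicate 2 or IFNko TGFB1 KO replicate 3. For the difference of the effects they numbered 0 to 1, and for INFko TGFB+ against wild type 0. Over all genes the same fits called 2199 to 2579, 2261 to 3532, 327 to 730 (lowest without TGFB KO replicate 1), 46 to 160 (lowest without INFko TGFB+ replicate 2) and 0 to 2 genes. A fit without an array holds fewer arrays, and the cause of the other changes was not tested. Apoa1 cannot be read on the normalized scale, and the files give no mark of saturation or of detection for any probe set.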
